A study of Mus musculus with 6 samples.

Results

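The Tudor and DEAD-box genes of germ granules are 10 genes, chosen by name among the 51826 gene identifiers of the count files: Ddx4, Ddx25, Tdrd1, Tdrd3, Tdrd5, Tdrd6, Tdrd7, Tdrd9, Tdrd12 and Rnf17. Germ granules are RNA-rich bodies without a membrane that mark germ cells. In spermatocytes they lie between mitochondria as intermitochondrial cement, and in round spermatids they merge into the chromatoid body, a perinuclear body that gathers piRNAs, PIWI proteins and stored or decaying transcripts. DEAD-box helicases remodel RNA and RNA-protein complexes with ATP, and Tudor domains bind methylated arginines, such as those on PIWI proteins, so that Tudor proteins act as the scaffold of these bodies. The samples are whole testes from C57BL/6J mice aged 8 weeks, profiled by RNA sequencing: 3 wild-type samples and 3 samples whose genotype is labelled KIFC1 knockout; KIFC1 is a minus-end-directed kinesin of the spindle. The sources used here give neither the allele, nor the cells in which it was deleted, nor the number of animals behind a sample. The p-values therefore reflect only how far these samples scatter, and that scatter may be technical.

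Levels are in counts per 1000000 counts (CPM), scaled between libraries by TMM, the trimmed mean of M values, and group values are means ± SD of 3 samples. The 6 libraries held 29274603 to 38703606 counts. Kifc1 had 15.5, 16.1 and 14.7 CPM in the wild-type samples and 0.326, 0.737 and 0.282 CPM in the knockout samples, as the labels have it. Knockout sample 2 stood apart from the other knockout samples: mitochondrial genes took 1.54% of its counts against 5.74% and 4.29% in samples 1 and 3, and 0.661%, 0.912% and 0.935% in wild type. All 3 knockout libraries thus lay above all wild-type ones in this share. The main test described below called 1770 genes, and 1725 when repeated without the mitochondrial genes, with 0 of the 10 genes in both. Whatever else goes with this share was not tested. The deviation of knockout sample 2 from the mean of all libraries had a Spearman rho of -0.677 with exon GC content across 12751 genes, against -0.281 and -0.128. The 3 wild-type libraries deviated the other way (rho 0.269, 0.533 and 0.526), so GC-poor genes tend to read higher in knockout. The fold changes of the 10 genes are therefore also given from a fit with offsets that remove each library's own trend with base composition and exon length. Because the GC trend goes with genotype in all libraries, the offsets would also remove a true genotype difference that follows GC content. A technical trend and such a difference cannot be told apart here. None of 68 listed markers of germ cell stages, Sertoli, Leydig, peritubular myoid, macrophage and endothelial cells was at 0 in every sample. Of all 51826 identifiers 17151 were, so this is only a weak check of the testis label.

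All 10 genes were expressed in every sample, with 1064 to 38566 counts per gene and library, and all 10 passed the filter on low counts. Compared per kilobase of annotated exon, the 4 most abundant were Tdrd6, Ddx4, Tdrd7 and Ddx25, which together made up 79.4% of the summed wild-type level per kilobase and 77.0% of the knockout one. In wild type Tdrd6 was at 145.1 ± 6.55 CPM per kilobase and Ddx4 at 123.0 ± 6.75, followed by Tdrd7 at 88.5 ± 6.88 and Ddx25 at 81.5 ± 16.6. Tdrd1 (35.3 ± 2.88), Tdrd9 (28.6 ± 0.0713), Rnf17 (17.9 ± 0.703) and Tdrd5 (15.7 ± 1.62) formed the middle of the order. Tdrd12 (9.81 ± 1.13) and Tdrd3 (6.15 ± 0.783) closed it, 23.6-fold below the top for Tdrd3. The wild-type values of neighbours in this order overlapped for Tdrd7 with Ddx25 and for Rnf17 with Tdrd5, so those pairs cannot be ranked. In knockout the order was the same except that both upper pairs changed places: Ddx4 (136.6 ± 30.5) stood above Tdrd6 (127.2 ± 13.3) and Ddx25 (80.9 ± 6.84) above Tdrd7 (66.9 ± 12.0), with overlapping values in both pairs. Exon length here is the union of all annotated exons of a gene, so a gene with many rarely used exons reads too low on this scale.

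**Figure D1:**
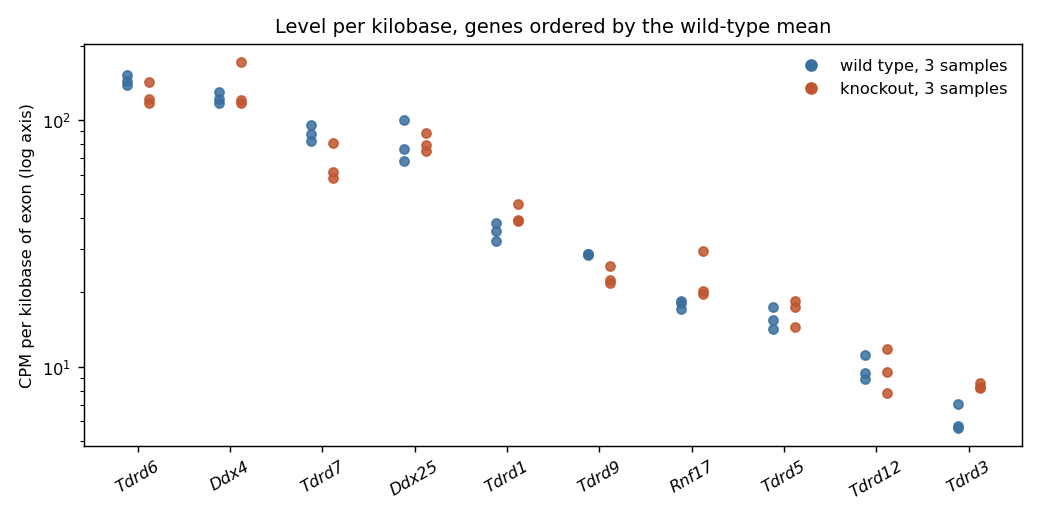
Level of each gene in CPM per kilobase of exon on a log axis, with 3 wild-type (blue) and 3 knockout (orange) samples per gene and genes ordered by their wild-type mean. Tdrd6, Ddx4, Tdrd7 and Ddx25 lie between 58.2 and 171.7, and Tdrd3 lies lowest, between 5.64 and 8.61.

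The question of the comparison is whether transcripts of the germ granule machinery differ in testes without KIFC1. None of the 10 genes passed the threshold (edgeR quasi-likelihood test, Benjamini-Hochberg adjusted p under 0.05 over 21518 genes), while 8.23% of all genes tested did (3.11% higher and 5.12% lower in knockout). At an unadjusted p under 0.05 there were 2 of them, Tdrd3 with the higher and Tdrd7 with the lower mean in knockout, where 27.1% of all genes were under that value. DESeq2 called 0 of the 10 genes as well, against 18.2% of the genes it gave an adjusted p. The fold changes ran from 0.755 for Tdrd7 to 1.36 for Tdrd3, and their 95% intervals, which are not adjusted for the number of genes, together spanned 0.584-fold to 1.72-fold. A change of 2-fold in either direction thus lay outside the interval of every one of the 10 genes. Their median log2 fold change was 0.04 and their median absolute value 0.21, against -0.01 and 0.38 over all genes tested. The genes tested include many with far fewer counts than these 10, and the comparison was not matched for level. In 5 of the 10 genes the 3 knockout values did not overlap the 3 wild-type ones, 3 with higher and 2 with lower knockout values, where 32.7% of all genes tested did not overlap (14.6% higher and 18.1% lower). In bulk RNA, fewer cells of a type and less RNA per cell cannot be told apart.

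**Figure D2:**
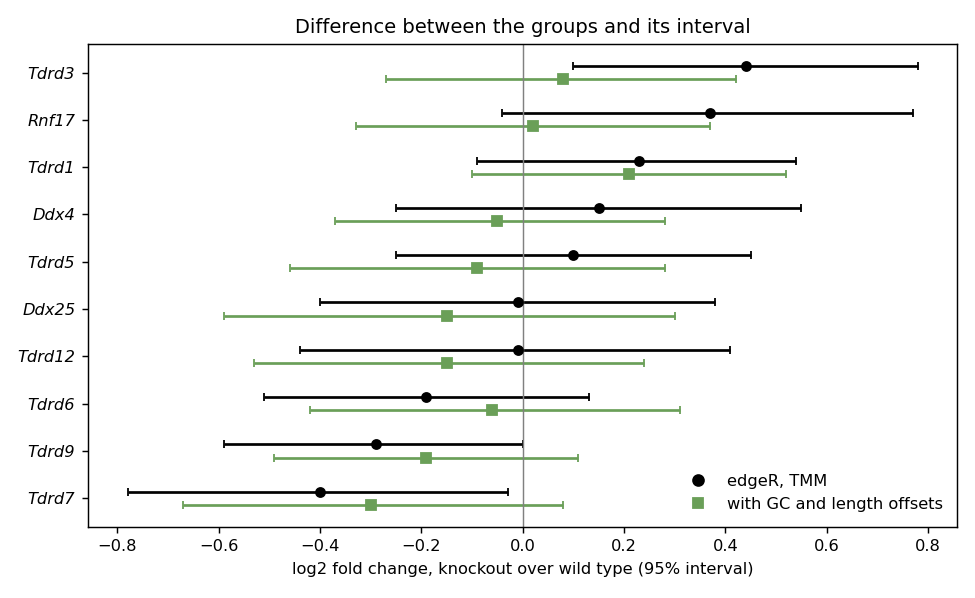
Log2 fold change of each gene, knockout over wild type, with its 95% interval, from the edgeR fit with TMM scaling (black circles) and from the fit with GC and length offsets (green squares). The black intervals of Tdrd3 (0.10 to 0.78) and Tdrd7 (-0.78 to -0.03) lie off 0, and every green interval crosses 0.

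For both DEAD-box helicase genes the difference between group means was within the spread of the samples. Ddx4 (ENSMUSG00000021758, chr13:112598333-112652475 of mm10, minus strand, protein-coding) encodes the mouse Vasa homologue, the classical marker of germ cells and of their granules. In CPM, the wild-type samples had 392.6, 367.8 and 352.2 and the knockout samples 353.6, 517.5 and 363.7. Knockout samples 1 and 3 lay inside the wild-type range and sample 2 far above it. The group means were 370.8 ± 20.4 and 411.6 ± 91.8 CPM (log2 fold change 0.15, SE 0.18, edgeR adjusted p = 0.622). Without knockout sample 2 the log2 fold change was -0.05, and with the GC and length offsets over all 6 samples it was also -0.05. Ddx25 (ENSMUSG00000032101, chr9:35536647-35558528, minus strand) encodes GRTH, the gonadotropin-regulated testicular helicase, which takes part in the export and translation of spermatid mRNAs. Wild-type samples held 694.0, 529.1 and 471.9 CPM of it, compared with 521.9, 548.0 and 613.9 CPM in knockout samples. The wild-type samples spread more than the knockout ones and enclosed all 3 of them. The log2 fold change was -0.01, with a 95% interval of -0.40 to 0.38.

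Of the 3 Tudor genes tied to the build of the chromatoid body, Tdrd7 showed the largest difference from wild type and the others showed less. Tdrd6 (ENSMUSG00000040140, chr17:43615335-43630299, minus strand) encodes a protein of several Tudor domains that is needed for the architecture of the body in round spermatids. Its level was 1019.6, 981.4 and 1073.5 CPM in the wild-type samples and 859.3, 1005.0 and 830.2 CPM in the knockout samples. Knockout samples 1 and 3 lay below every wild-type sample and sample 2 within their range (log2 fold change -0.19, SE 0.14, edgeR adjusted p = 0.421). Tdrd7 (ENSMUSG00000035517, chr4:45965334-46034761, plus strand) encodes a Tudor and LOTUS domain protein that takes part in remodelling the body and in translation control. In CPM, the wild-type samples had 379.1, 347.1 and 324.9 and the knockout samples 230.4, 319.0 and 244.6. All knockout values lay below all wild-type values, with sample 2 just under the lowest of them. The means were 350.4 ± 27.2 and 264.7 ± 47.6 CPM (0.755-fold, 95% interval 0.584 to 0.977, log2 fold change -0.40, SE 0.16, edgeR adjusted p = 0.153). Knockout sample 2 decided its call: without that library Tdrd7 passed as lower in knockout (log2 fold change -0.56, SE 0.12, edgeR adjusted p = 0.0267), in a fit that called 14.3% of all genes, or 7.69% in the lower direction. It also passed when the GC and length offsets were used without that library (-0.48, edgeR adjusted p = 0.0403), where 6.27% of all genes were called lower. Tdrd5 (ENSMUSG00000060985, chr1:156255296-156303664, minus strand), whose LOTUS and Tudor domain protein is needed for assembly of the body and for pachytene piRNAs, had 121.0, 107.7 and 98.7 CPM in the wild-type samples and 121.5, 100.6 and 128.4 CPM in the knockout samples. The groups overlapped (log2 fold change 0.10, SE 0.15). Its exons share 176 bases with the antisense gene 4930518J20Rik, which held 1403 to 2277 counts per library against 3004 to 4474 for Tdrd5, and without stated strand use the reads of these genes cannot be told apart.

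**Figure D3:**
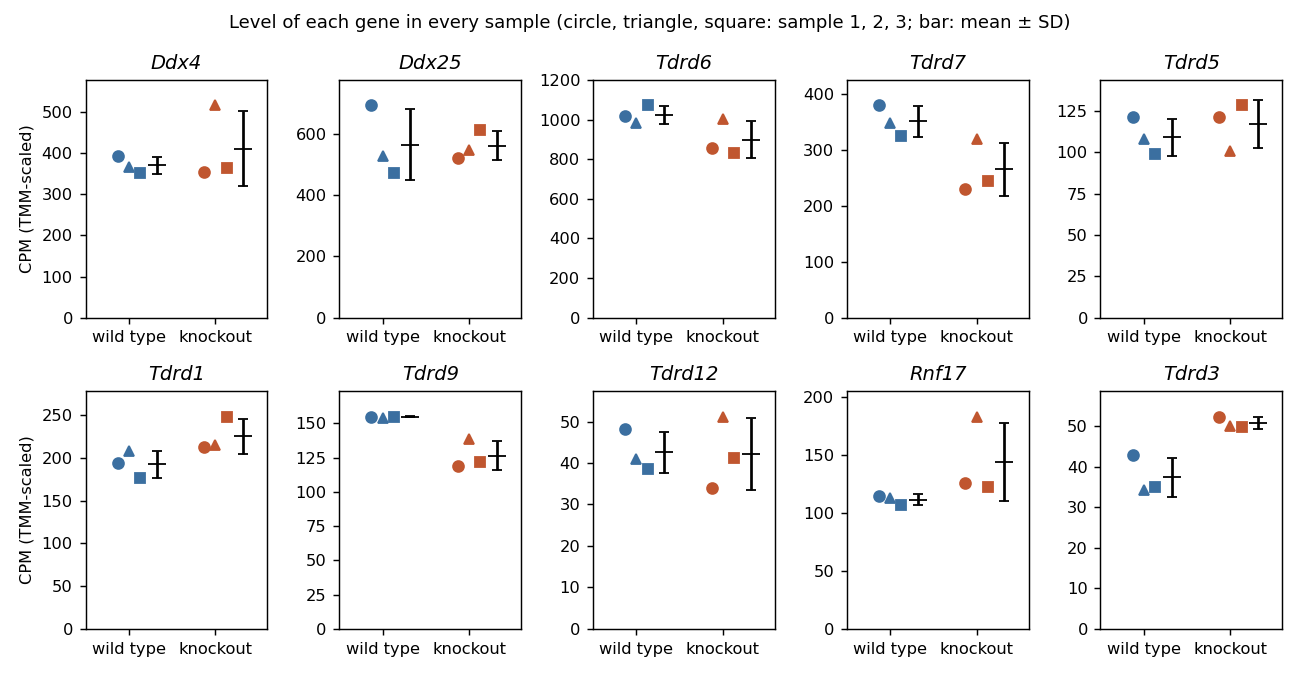
CPM of each of the 10 genes in every sample, with wild type in blue, knockout in orange, samples 1, 2 and 3 as circle, triangle and square, and the mean ± SD beside them; every axis starts at 0. Knockout sample 2 is the highest knockout sample for Ddx4, Tdrd6, Tdrd7, Tdrd9, Tdrd12 and Rnf17, and the groups do not overlap for Tdrd1, Tdrd3, Tdrd7, Tdrd9 and Rnf17.

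The 4 Tudor genes that work with PIWI proteins in making piRNAs showed no common direction. Tdrd1 (ENSMUSG00000025081, chr19:56826209-56870012, plus strand) encodes the partner of PIWIL2 in the intermitochondrial cement. Wild-type samples held 193.6, 207.4 and 176.1 CPM of it, compared with 212.2, 214.8 and 248.2 CPM in knockout samples. Each knockout value lay above each wild-type value, by a small margin (log2 fold change 0.23, SE 0.14, edgeR adjusted p = 0.333). Tdrd9 (ENSMUSG00000054003, chr12:111971559-112068854, plus strand) encodes a helicase with a Tudor domain that acts with PIWIL4 against transposons. In CPM it read 154.8, 154.2 and 154.9 in wild type, the tightest group among the 10 genes, compared with 118.8, 138.3 and 121.5 in knockout. All knockout values were below all wild-type ones (0.816-fold, 95% interval 0.664 to 1.0, log2 fold change -0.29, SE 0.13, edgeR adjusted p = 0.19). Tdrd12 (ENSMUSG00000030491, chr7:35469098-35537745, minus strand), whose Tudor and helicase-like protein takes part in loading PIWIL4, had 48.1, 41.0 and 38.6 CPM in the wild-type samples and 33.9, 51.2 and 41.3 CPM in the knockout samples. The knockout samples surrounded the wild-type range (log2 fold change -0.01, SE 0.19). Rnf17 (ENSMUSG00000000365, chr14:56402581-56525032, plus strand) encodes a RING finger protein with Tudor domains that is needed for spermiogenesis and restrains piRNA amplification in meiotic cells. Its level was 115.1, 113.3 and 106.8 CPM in the wild-type samples and 126.3, 183.4 and 122.7 CPM in the knockout samples. All knockout values were higher than all wild-type ones, and sample 2 stood far above the other 5 samples. The log2 fold change was 0.37 (SE 0.18, edgeR adjusted p = 0.225), and it was 0.16 without knockout sample 2 and 0.02 with the GC and length offsets.

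Tdrd3 (ENSMUSG00000022019, chr14:87416639-87545504, plus strand) differs from the other 9 genes in its known role: its protein is found in many tissues, reads methylarginine marks on histones and RNA polymerase II, and holds the topoisomerase TOP3B. In CPM, the wild-type samples had 42.8, 34.2 and 35.0 and the knockout samples 52.3, 50 and 49.7. Here the knockout samples lay close together and all above the wild-type ones (37.3 ± 4.75 and 50.7 ± 1.4 CPM). It had the smallest unadjusted p of the 10 genes, at 0.0172, and a fold change of 1.36 (95% interval 1.07 to 1.72, edgeR adjusted p = 0.103, DESeq2 adjusted p = 0.0614). With the GC and length offsets the log2 fold change went from 0.44 to 0.08 (SE 0.15, adjusted p = 0.801). Among its partners on the TDRD3-TOP3B list, edgeR called 0 of 4 higher and 1 lower, where 3.11% and 5.12% of all genes were. At an unadjusted p under 0.05, 2 were higher and 1 lower, against 27.1% of all genes. The list median log2 fold change was 0.30, or 0.02 with the offsets. Fmr1 had 0.60 (SE 0.23, edgeR adjusted p = 0.144, -0.04 with the offsets). The gene called was Fxr2, an RNA-binding relative of the fragile X protein, which went from 138.2 ± 5.14 to 91.0 ± 8.45 CPM (log2 fold change -0.60, SE 0.14, edgeR adjusted p = 0.0335, -0.28 with the offsets). Its paralog Fxr1, which shares 178 exon bases with Dnajc19, did not pass (log2 fold change 0.53, SE 0.15, edgeR adjusted p = 0.0634, 0.08 with the offsets), whereas DESeq2 called it higher in knockout (adjusted p = 0.0148). Top3b itself stood at 69.6 ± 5.03 and 73.0 ± 16.6 CPM (log2 fold change 0.07, SE 0.18), and its exons share 108 bases with Vpreb1.

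The sign of the fold changes followed the base composition of the 10 genes. The GC-poor genes Tdrd3 (39.9% exon GC), Rnf17 (40.4%) and Ddx4 (43.1%) had positive log2 fold changes, and the 3 genes above 50% GC, Tdrd7 (50.2%), Tdrd9 (50.3%) and Tdrd6 (51.7%), had negative ones. Across the 10 genes the Spearman rho of log2 fold change with GC content was -0.82, and across 21467 genes tested it was -0.47. With the GC and length offsets the rho was -0.52 across the 10 genes and 0 after rounding across all genes. Genes of the same libraries are not independent replicates, and no p is given. Tdrd1 (48.4%) lay off this order, with a log2 fold change of 0.23 that stayed at 0.21 with the GC and length offsets. Tdrd7 and Tdrd9 went from -0.40 and -0.29 to -0.30 and -0.19, whereas Rnf17 and Tdrd3 went to 0.02 and 0.08. The remaining genes had -0.06 (Tdrd6), -0.05 (Ddx4), -0.09 (Tdrd5), -0.15 (Tdrd12) and -0.15 (Ddx25) with the offsets, so that the signs of Ddx4 and Tdrd5 turned. With the offsets 0 of the 10 genes passed the edgeR test and 0 had an unadjusted p under 0.05, against 0.0837% and 22.3% of all genes tested. The lowest of their unadjusted p values was then 0.111, for Tdrd7.

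**Figure D4:**
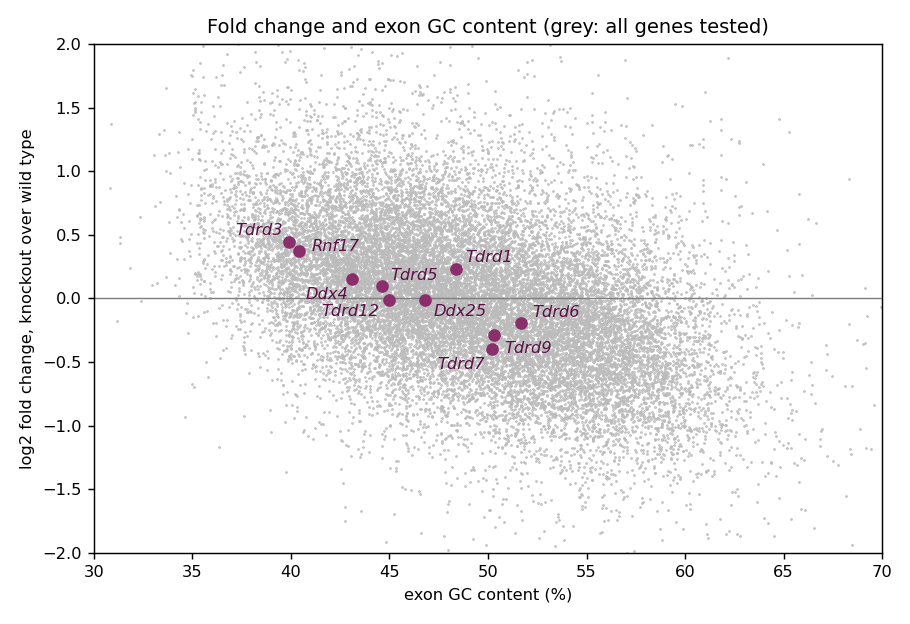
Log2 fold change, knockout over wild type, against exon GC content in percent for all genes tested (grey) and the 10 genes (purple, named); 161 of 21467 genes fall outside the axes. The 10 genes run from Tdrd3 at 39.9% GC and 0.44 to Tdrd6 at 51.7% and -0.19, within the grey cloud.

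Leaving out 1 library at a time kept the sign of 7 of the 10 log2 fold changes in all 6 fits and changed that of Ddx4, Ddx25 and Tdrd12, whose values lay near 0. Tdrd3 ranged from 0.38 to 0.57, Rnf17 from 0.16 to 0.49 and Tdrd1 from 0.16 to 0.28. Tdrd7 ranged from -0.56 to -0.31, Tdrd9 from -0.36 to -0.25 and Tdrd6 from -0.28 to -0.12, and all 3 were lowest without knockout sample 2. Only Tdrd7 without knockout sample 2 passed the edgeR test in these 6 fits. The lowest edgeR adjusted p of Tdrd9 was 0.0717 and that of Tdrd3 was 0.0924, both likewise without that library. The fit without it called 3149 of 22013 genes (14.3%). Over all genes the others called 5, 1 and 425 without wild type 1, 2 and 3, and 1 and 327 without knockout 1 and 3. Where so few genes passed, the absence of calls among the 10 genes says little.

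**Figure D5:**
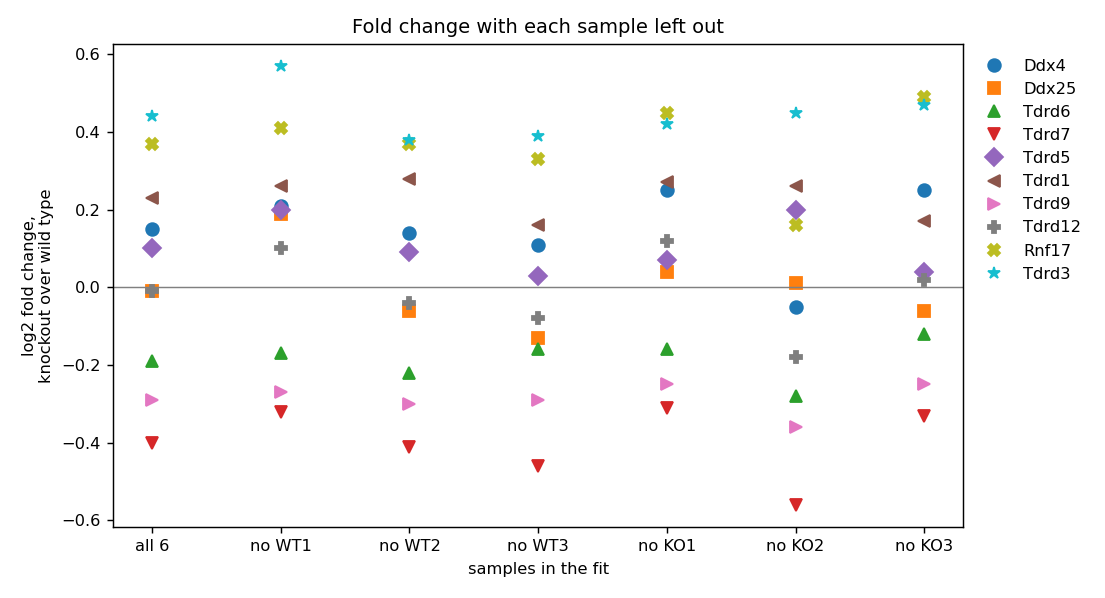
Log2 fold change, knockout over wild type, of each gene (symbols) with all 6 samples and with each sample left out in turn. Tdrd3, Rnf17, Tdrd1 and Tdrd5 stay above 0 and Tdrd6, Tdrd7 and Tdrd9 below it; Tdrd7 is lowest, at -0.56, without knockout sample 2.

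The start regions of the genes whose groups did not overlap are shown because their samples separated and because MYB-type and E-box sequences are the binding motifs of A-MYB and of bHLH factors such as TCFL5, which act in pachytene spermatocytes. In the RefSeq promoter table (GRCm38.p6), 8 of the 10 genes matched, all but Tdrd6 and Rnf17, with 13 start sites. Windows hold the 250 bases before a start site, 5' to 3' on the strand of the gene, and the first listed start is printed for Tdrd1 and Tdrd7. They lie at chr12:111971309-111971558 (Tdrd9, plus strand), chr19:56825959-56826208 (Tdrd1, plus strand), chr4:45965085-45965334 (Tdrd7, plus strand) and chr14:87416333-87416582 (Tdrd3, plus strand). Capitals mark the E-box CACGTG, the MYB-type CAGTTG and the TATA-type TATAAA on either strand; these motifs and windows were chosen after matches had been seen.
Tdrd9: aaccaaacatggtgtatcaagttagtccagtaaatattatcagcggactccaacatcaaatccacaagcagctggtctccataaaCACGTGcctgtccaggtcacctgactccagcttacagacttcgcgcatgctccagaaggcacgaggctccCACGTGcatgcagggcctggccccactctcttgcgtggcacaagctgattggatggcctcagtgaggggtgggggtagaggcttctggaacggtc
Tdrd1: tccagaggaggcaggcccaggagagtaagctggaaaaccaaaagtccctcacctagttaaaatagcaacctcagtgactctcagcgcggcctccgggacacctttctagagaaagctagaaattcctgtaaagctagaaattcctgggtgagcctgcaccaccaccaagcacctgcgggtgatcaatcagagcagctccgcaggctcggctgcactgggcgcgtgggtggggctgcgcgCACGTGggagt
Tdrd7: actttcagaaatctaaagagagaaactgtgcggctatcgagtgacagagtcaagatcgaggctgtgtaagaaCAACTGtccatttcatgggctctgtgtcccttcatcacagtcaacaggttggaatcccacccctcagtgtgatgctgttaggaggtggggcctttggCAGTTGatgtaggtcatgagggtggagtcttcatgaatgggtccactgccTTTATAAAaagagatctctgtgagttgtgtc
Tdrd3: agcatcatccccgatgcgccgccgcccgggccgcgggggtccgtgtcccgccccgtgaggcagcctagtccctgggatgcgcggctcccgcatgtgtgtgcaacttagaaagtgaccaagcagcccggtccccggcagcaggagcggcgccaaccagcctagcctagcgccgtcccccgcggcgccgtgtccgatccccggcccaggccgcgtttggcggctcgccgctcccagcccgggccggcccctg

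The Tdrd9 window holds 2 E-boxes, whose first bases lie 165 and 95 bases before the start, and the Tdrd1 window holds 1, at 11 bases. The Tdrd7 window holds 2 MYB-type matches, at 178 and 81 bases, and an overlapping pair of TATA-type matches near 30 bases. The Tdrd3 window holds none of these and has 75.2% GC and 32 CpG dinucleotides, against 3 in the printed Tdrd7 window, 8 in that of Tdrd9 and 11 in that of Tdrd1. The count depends on the start site: the other Tdrd7 windows hold 28 and 29 CpG and the other Tdrd1 windows 22 and 3. Of 32851 windows in the table, 6.02% hold CACGTG, 11.1% hold CAGTTG and 12.4% hold TATAAA. Among the 8 genes, Ddx4, Tdrd1 and Tdrd9 have a window with CACGTG, and Tdrd7 has windows with CAGTTG and with TATAAA. The longer MYB-type AACNGCC, which overlaps 1 of the matches above in Tdrd7, was found in windows of Tdrd1, Tdrd7 and Tdrd12 and in 9.83% of all windows. The cAMP response element TGACGTCA was found in 0 of the 13 windows and in 1.55% of all. A match of letters is a description of these windows and shows no binding.

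Among the PIWI and piRNA genes that work with Tudor proteins, 1 of 14 measured members rose and 2 fell by edgeR, where 3.11% of all genes were called higher and 5.12% lower. DESeq2 called 1 higher and 3 lower, against 18.2% of all genes. This added Fkbp6, a co-chaperone gene of the piRNA pathway named after its values were seen (DESeq2 adjusted p = 0.0295). Mybl1, which encodes A-MYB, was higher in knockout, with 68.6 ± 6.6 against 42.0 ± 3.3 CPM (log2 fold change 0.71, SE 0.15, edgeR adjusted p = 0.028), and its 36.7% GC content goes with a log2 fold change of 0.14 under the GC and length offsets. Pld6, a mitochondrial-surface nuclease that makes piRNA ends, was lower in knockout, with 40.9 ± 6.18 against 83.3 ± 8.73 CPM (-1.03, SE 0.17, adjusted p = 0.0168), and Gpat2, an acyltransferase of germ cell mitochondria that takes part in piRNA making, dropped from 70 ± 5.19 to 32.9 ± 6.47 CPM (-1.09, SE 0.18, adjusted p = 0.0168). With the offsets Pld6 and Gpat2 had log2 fold changes of -0.65 and -0.73 and did not pass, in a fit that called only 0.0837% of all genes. With the offsets and without knockout sample 2 both passed (-0.74 and -0.99, edgeR adjusted p = 0.0195 and 0.00872), where 6.27% of all genes were called lower. The PIWI and piRNA list had a median of -0.25, and -0.26 with the offsets. In 7 of the 14 genes the groups did not overlap, 1 higher and 6 lower, against 14.6% higher and 18.1% lower over all genes tested.

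None of 12 measured genes with other Tudor domains was called by edgeR, with 2 higher and 2 lower at an unadjusted p under 0.05, and DESeq2 called 2, both higher in knockout. Over all genes the shares were 8.23% by edgeR, 27.1% at that unadjusted p and 18.2% by DESeq2. The median log2 fold change of these Tudor-domain genes was 0.12, or -0.11 with the GC and length offsets. The smallest p values belonged to Smndc1, a splicing factor gene at 38.2 ± 0.507 and 52.2 ± 4.77 CPM (log2 fold change 0.45, SE 0.14, edgeR adjusted p = 0.0842), and Smn1, the survival motor neuron gene. Smn1 read 13.3, 14.4 and 13.3 CPM across wild type, compared with 33.1, 12.5 and 39.6 CPM across knockout. Knockout sample 2 was thus below all wild-type samples and the others were well above them (log2 fold change 1.06, SE 0.36, adjusted p = 0.102). With the offsets Smndc1 and Smn1 had log2 fold changes of 0.36 and 1.03.

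Of 35 other DEAD-box helicases measured, 3 rose and 3 fell by edgeR, where 8.23% of all genes were called. Their median log2 fold change was -0.08, or -0.13 with the GC and length offsets. At an unadjusted p under 0.05 there were 3 higher and 7 lower, where 27.1% of all genes were under that value. DESeq2 called 3 higher and 5 lower, against 18.2% of all genes. The groups did not overlap for 5 higher and 10 lower, against 14.6% higher and 18.1% lower over all genes tested. Ddx10, a helicase of ribosome making, was higher in knockout, at 46.1 ± 3.39 against 24.7 ± 1.47 CPM (log2 fold change 0.90, SE 0.15, edgeR adjusted p = 0.0172). Ddx43, which acts in the male germ line, was at 17.1 ± 1.06 CPM in knockout and 9.75 ± 0.867 CPM in wild type (0.81, SE 0.17, adjusted p = 0.0275), but shares 350 exon bases with an antisense gene of 205 to 437 counts per library. Ddx54 was at 73.4 ± 5.98 CPM in knockout and 115.3 ± 3.67 CPM in wild type (-0.65, SE 0.13, adjusted p = 0.0268) and overlaps Gm43579 and Cfap73, so its level is uncertain. Ddx56, of the nucleolus, was at 30.9 ± 1.81 CPM in knockout and 51.1 ± 9.13 CPM in wild type (-0.72, SE 0.17, adjusted p = 0.0368). The fit with offsets gave 0.71, 0.69, -0.23 and -0.47 for this set of 4, none of which passed, in a fit that called only 0.0837% of all genes. With the offsets and without knockout sample 2, Ddx10 and Ddx43 passed (0.81 and 0.77, edgeR adjusted p = 0.0152 and 0.0202), and Ddx54 and Ddx56 did not. That fit called 13.2% of all genes.

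Of 18 genes for other chromatoid body and RNA decay proteins, 0 were called by edgeR, with 4 higher and 2 lower at an unadjusted p under 0.05, and DESeq2 called 2, both higher in knockout. Over all genes the shares were 8.23% by edgeR, 27.1% at that unadjusted p and 18.2% by DESeq2. The smallest p values of the 18 were those of Upf2, of nonsense-mediated decay, at 44.7 ± 6.39 and 68.7 ± 8.21 CPM (log2 fold change 0.62, SE 0.17, edgeR adjusted p = 0.0548) and of Pabpc1, the poly(A)-binding protein gene (0.79, SE 0.23, adjusted p = 0.0651). Pabpc1 had 2137.6, 2447.1 and 2488.7 CPM in the wild-type samples and 4627.4, 2688.8 and 4931.4 CPM in the knockout samples. For Pabpc1 knockout sample 2 lay nearest to wild type, whereas for Ddx4 and Rnf17 it lay farthest from it. With the GC and length offsets Upf2 and Pabpc1 had log2 fold changes of 0.45 and 0.6.

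Germ cell stages, among them the spermatocytes and round spermatids that carry these granules, were read from marker genes. The summed level of 8 elongating spermatid markers lay between 21936.7 and 23823.4 CPM in wild type and between 16274.3 and 21170.5 CPM in knockout. Prm2 and Tnp2 weighed most in this sum (means of 5469.5 and 4216.9 CPM in wild type). Of the 8 markers edgeR called 0 higher and 2 lower, where 3.11% and 5.12% of all genes were. The 2 were Prm1 and Tnp2 (log2 fold changes -0.66 and -0.63, edgeR adjusted p = 0.045 and 0.0451). Gapdhs, Akap4 and Oaz3 had positive log2 fold changes (0.37, 0.15 and 0.07) and the other markers negative ones. The list median was -0.37, or -0.13 with the GC and length offsets. With the GC and length offsets Prm1 and Tnp2 had -0.38 and -0.17 (edgeR adjusted p = 0.198 and 0.493), and 0 markers of any cell type list were called. That fit called only 0.0837% of all genes tested, so the absence of calls among markers says little. The sum of 10 spermatocyte markers lay between 735.6 and 866.0 CPM in wild type and between 873.8 and 896.1 CPM in knockout. Here edgeR called 2 higher (Sycp1 and Brdt, the latter named after its values were seen) and 1 lower (Pou5f2), where 3.11% and 5.12% of all genes were. Mean Brdt went from 194.6 to 306.4 CPM and Sycp1 from 62.5 to 116.9 CPM. The list median log2 fold change was -0.14. Ovol2, Aurkc, Ccna1 and Dmc1 also had negative values (-0.54, -0.42, -0.29 and -0.29), and Hormad1 and Sycp3 positive ones (0.53 and 0.44). With the offsets Sycp1, of 34.6% GC, went from 0.90 to 0.17 on the log2 scale, Brdt from 0.65 to 0.52 and Pou5f2 from -0.92 to -0.68. The groups overlapped for the sums of 8 round spermatid markers (1401.5 to 1870.6 and 1431.9 to 1817.1 CPM) and of 8 spermatogonial markers (100.1 to 123.2 and 101.7 to 116.7 CPM). Summed over the 10 Tudor and DEAD-box genes the level was 2832.7 to 3160.7 CPM in wild type and 2630.3 to 3127.7 CPM in knockout, and so overlapped as well. By edgeR 1 round spermatid marker rose, Spaca7 (log2 fold change 0.95, also with the offsets). Of the spermatogonial markers 1 fell, Sohlh1 (-1.14, and -0.65 with the offsets), where 3.11% of all genes were called higher and 5.12% lower. DESeq2 called 3 spermatocyte markers higher and 1 lower, and 2 round spermatid markers higher and 1 lower. It called 0 and 1 spermatogonial and 0 and 3 elongating spermatid markers, against 18.2% of all genes. Of 9 Sertoli markers 1 rose by edgeR, Rhox8 (log2 fold change 1.01, and 1.09 with the offsets), and 1 fell, Amhr2 (-0.71, and -0.25 with the offsets). At an unadjusted p under 0.05 there were 5 Sertoli markers higher and 1 lower, DESeq2 called 3 higher and 1 lower, and their median log2 fold change was 0.52, or 0.72 with the offsets. The edgeR test called 0 of 7 Leydig, 5 myoid, 7 macrophage and 6 endothelial markers, with 3, 0, 1 and 1 of them at an unadjusted p under 0.05 and 3, 0, 0 and 0 called by DESeq2. Over all genes the shares beside the Sertoli and these counts were 8.23% by edgeR, 27.1% at that unadjusted p and 18.2% by DESeq2. The Leydig markers so counted were Hsd17b3, Cyp17a1 and Lhcgr both times, all higher in knockout and without overlap of the groups. Across the 7 Leydig markers the middle value was 0.84 on the log2 scale, or 0.76 with the offsets. Insl3 was the only Leydig marker lower in knockout (-0.38, but 0.25 with the offsets). Of the macrophage and endothelial markers so counted, Cd68 was higher and Egfl7 lower. The summed Leydig level was lowest in wild type 1, at 610.2 CPM against 1020.3 to 1562.5 CPM in the other 5 samples. The part of these cell type shares in the levels of the 10 genes was not tested.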

How the data were processed

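Gene counts were deposited by the authors as raw counts, 1 file per sample and 51826 Ensembl identifiers each, with 0 rows that name no gene. Per the submitters' processing notes, Trimmomatic, HISAT2, HTSeq and mm10 were used; the sources used here give no versions, annotation, strand setting or handling of multi-mapping reads. Names, positions, exon lengths and GC content (from the transcript sequences) came from GENCODE M21 on GRCm38 (the mm10 assembly), which matched 51633 identifiers. The listed gene Tdrd15 had no match.

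The main test was edgeR 4.0.16 (R 4.3.3): quasi-likelihood test, TMM, filterByExpr, 6 samples, no covariates, two-sided Benjamini-Hochberg adjustment over 21518 genes, threshold 0.05. SE came from the fold change and F statistic, 95% intervals from the t distribution of the fit. Offsets were splines (5 degrees of freedom) of each library's deviation in log2 CPM (prior count 2) on GC content and log2 exon length, fitted on 12751 genes with mean log2 CPM above 2. Scripts were tested on simulated data. Samples of 1 group differed by more than counting error (chi-square over its degrees of freedom 16.7 to 148.8). A floor of 3 counts is 0.0775 to 0.102 CPM, which covers counting error only.

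The 10 genes and all lists were chosen with earlier results of these data known. Besides the 10 genes and Kifc1, the rule named the 2 genes of each list with the smallest p and up to 2 more as examples; of cell type markers, those called are named. Alternatives were other scalings and filters, DESeq2 1.42.0, a replicate block, offsets, no mitochondrial genes, thinned libraries and each sample left out; the offsets without knockout sample 2 were added after the data were seen.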

Additional observations from a re-analysis of the deposited data

How the results depend on the processing

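The number of the 10 genes higher in knockout was 0 in all 18 alternatives, and the number lower was 0 in 16. With a library left out it ranged from 0 to 1 (Tdrd7 without knockout sample 2), and it was 1, again Tdrd7 (edgeR adjusted p = 0.0403), in the GC and length offsets without knockout sample 2. Over all genes the number called was 1770; it was 1010 with no expression filter, 3305 by DESeq2, 8 with GC offsets, 18 with GC and length offsets, 2909 with those offsets without knockout sample 2, and 1 to 3149 with a library left out (5, 1 and 425 without wild type 1, 2 and 3, and 1, 3149 and 327 without knockout 1, 2 and 3). The 5 other gene lists held 10 called genes, against 18 by DESeq2, 0 with GC offsets, 0 with GC and length offsets and 0 to 23 with a library left out (0, 0 and 2 without wild type 1, 2 and 3, and 0, 23 and 1 without knockout 1, 2 and 3). The cause was not tested. Scaling moved the median log2 fold change of all genes by less than 0.1. Tdrd5, Tdrd12, Rnf17, Ddx4 and Ddx25 had the opposite sign in 3, 5, 1, 5 and 7 of the 18 alternatives, at log2 fold changes that no test called.

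The shared replicate numbers did not pair the samples: the deviations of same-numbered samples correlated at -0.286, -0.056 and -0.126, and no knockout sample correlated best with the wild-type sample of its own number. With the replicate block 21 genes were called, 0 of the 10 genes and 0 of the other lists, and with the replicate block and the GC and length offsets 5 were, again with 0 and 0.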
